A study of Mus musculus with 6 samples.

Results

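Heat shock chaperones were examined in the livers of male mice aged 8 weeks, on 6 arrays of total liver RNA. The HFD-inulin group comprised 3 samples from offspring of mothers given inulin, a fermentable plant fibre, and the HFD group comprised 3 samples from offspring of mothers on a high-fat diet. The name HFD-inulin also carries the high-fat diet, so the comparison was not read as inulin in place of fat. The sources used here do not state the strain, the diet of the offspring themselves, whether littermates were used or whether a sample is 1 animal, so p-values measure only the spread between these samples. The set was defined by gene symbol and comprised 10 genes of the heat shock response. They were the mitochondrial chaperonin genes Hspe1 and Hspd1, the cytosolic chaperone and co-chaperone genes Hsp90aa1, Hsp90ab1, Hspa8, Hsph1, Dnajb1, Dnaja1 and Chordc1, and the transcription factor gene Hsf1. Of these, 7 were measured by a probe set that carries their symbol alone, out of 30702 genes so measured. Dnaja1 was covered by 1 probe set, listed under Mir207 as well, and is described apart from the others. Hsp90ab1 and Hsf1 were not analysed here. Where several singly named probe sets existed for a gene, the brightest on average over the 6 arrays was kept. Values per array are given on the log2 scale in the order of arrays 1, 2 and 3 of each group.

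Chaperones help other proteins to fold, keep unfolded chains from aggregating and pass clients between machines. In the cytosol, J proteins deliver clients to HSP70, nucleotide exchange factors such as HSPH1 reset it, and HSP90 completes the folding of kinases and steroid receptors. In mitochondria, HSPD1 forms a folding chamber that HSPE1 closes. When unfolded protein accumulates, the factor HSF1 forms trimers and binds heat shock elements, which are alternating GAA and TTC units in promoters. In liver, as in other tissues, some of these genes are active at all times and others mainly under stress.

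The heat shock elements are shown because several members share them. The rule that chose the members did not search promoters, but it listed genes of the heat shock response. Their motif count is thus not independent of that choice. Promoter windows were taken from RefSeq (build GRCm38.p6), from 250 bases before to 50 bases after each listed start site, and held an entry for 6 of the 10 members, Hspe1, Hspd1, Hsph1, Dnajb1, Dnaja1 and Chordc1. Both strands were searched for GAANNTTC and TTCNNGAA, which hold 2 units, and for the same letters carried on by NNGAA or NNTTC to 3 units, which overlap the shorter motifs. In the following 30-base windows, read 5′ to 3′ on the strand of the gene, the capitals mark the run of alternating units.
Hspe1: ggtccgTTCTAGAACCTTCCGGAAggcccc
Hspd1: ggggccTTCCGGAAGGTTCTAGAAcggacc
Hsph1: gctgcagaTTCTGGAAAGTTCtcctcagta
Chordc1: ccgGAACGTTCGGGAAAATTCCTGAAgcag
Dnaja1: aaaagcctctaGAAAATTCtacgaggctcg

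The Hspe1 and Hspd1 windows are the same DNA, chr1:55088053-55088082, read on the plus strand for Hspe1 and on the minus strand for Hspd1. These genes lie head to head, and the run of 4 units sits between a start site of each. It spans positions -89 to -72 from the start site of Hspe1 and -144 to -127 from 1 of the start sites listed for Hspd1. The Chordc1 run has 5 units (chr9:18292260-18292289, plus strand) and spans positions -4 to 19 across the start site. The Hsph1 run has 3 units (chr5:149636279-149636308, minus strand) and lies just after the start site, at positions 16 to 28 for the start site listed farther downstream. The Dnaja1 window holds 2 units only (chr4:40722333-40722362, plus strand), at positions -124 to -117. No run of these letters is in the windows listed for Dnajb1. A motif of 2 units was thus found for 5 of the 6 members with an entry, and one of 3 units for 4 of them. Over all 27025 genes with a promoter window the shares were 17.0% and 0.662%. Hspe1 and Hspd1 are both counted for the same run of DNA. Of 61 other chaperone genes with an entry, from the wider list described below, 19 held a motif of 2 units and 1 held one of 3 units. A match describes letters in a window and not a site in use.

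No chaperone passed the adjusted threshold, and 6 of the 7 measured members had higher means in HFD-inulin, with arrays 1 and 2 of that group the highest of all 6. Over all genes, dim ones included, 46.9% had a higher mean in HFD-inulin, and 13.8% had HFD-inulin arrays 1 and 2 as the highest. In those arrays Hspe1, Hspd1, Hsp90aa1, Hsph1 and Chordc1 all lay well above the other 4 arrays. Array 3 of HFD-inulin lay at or near the HFD level, so the groups overlapped in every one of the 7 genes. Hspa8 was nearly level over the 6 arrays, and Dnajb1 was high in array 1 alone. The median log2 difference, HFD-inulin minus HFD, was 0.57 over the 7 members and -0.01 over all genes. In limma 0 of 7 members had an adjusted p under 0.05, as did 0% of the 65956 probe sets. Without adjustment 2 of 7 did, Hspe1 and Hspd1, both higher in HFD-inulin, against 5.15% of all probe sets (2.52% higher and 2.64% lower) and 5.65% of all genes. The groups did not overlap in 0 of 7 members, against 10.3% of all probe sets.

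**Figure D1:**
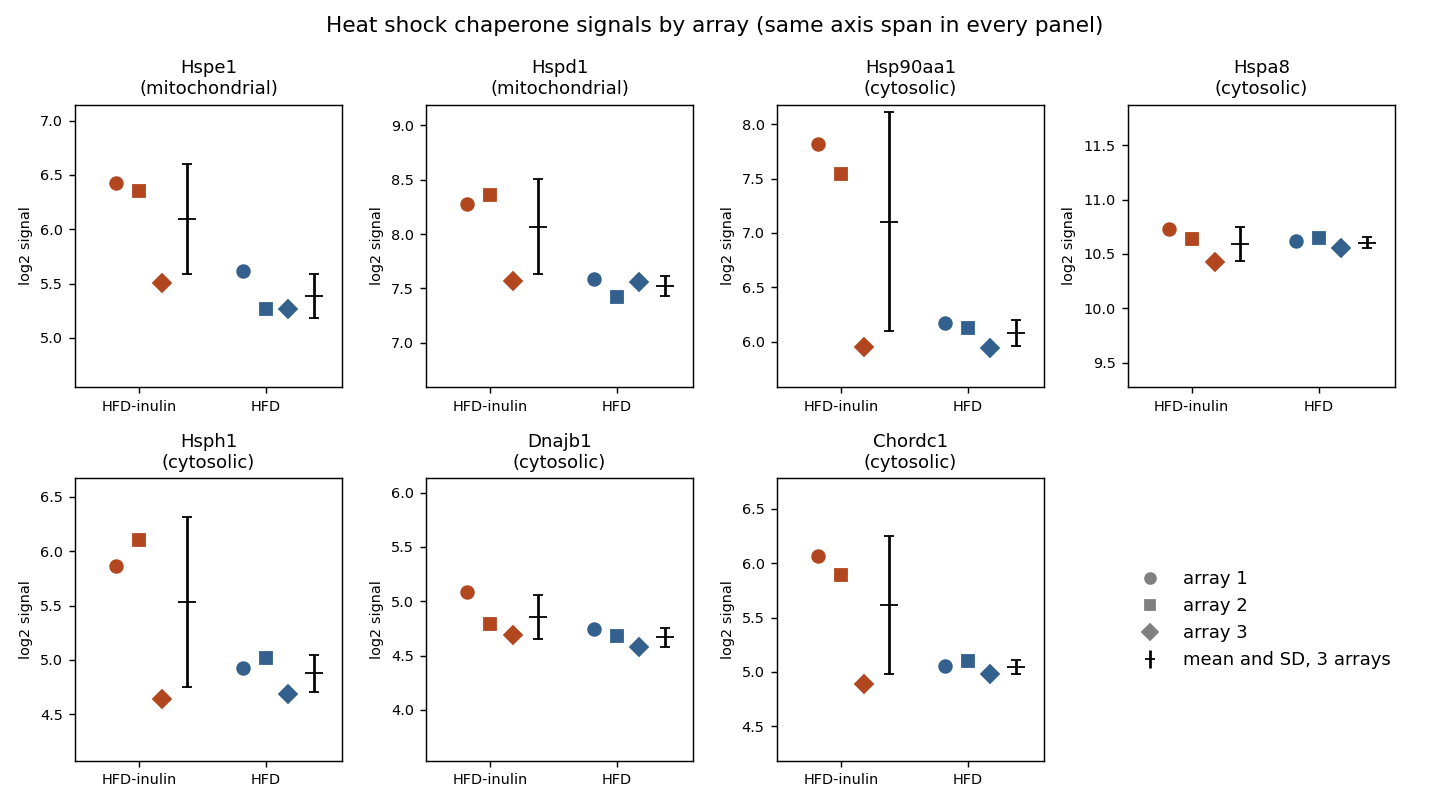
Log2 signal of the 7 chaperone genes in each array, with the mean and SD of 3 arrays per group at the right of each group. Every panel spans the same number of log2 units, and HFD-inulin arrays 1 and 2 stand above the other 4 in all panels but that of Hspa8, by only 0.04 for Dnajb1.

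Hspe1 encodes the small co-chaperonin of mitochondria. Its log2 signal was 6.43, 6.35 and 5.51 under HFD-inulin and 5.62, 5.27 and 5.27 under HFD. HFD-inulin arrays 1 and 2 were high, and array 3 lay between HFD arrays 1 and 2. The group means were 6.10 ± 0.51 and 5.39 ± 0.20 (SD, n = 3), a 1.64-fold ratio. The log2 difference was 0.71 (SE 0.25, 95% interval 0.11 to 1.31, limma adjusted p = 0.902). Its unadjusted p in limma was 0.0277, the smallest of the 7.

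Hspd1 encodes the larger chaperonin subunit, from the opposite strand beside Hspe1. It measured 8.28, 8.36 and 7.57 under HFD-inulin and 7.59, 7.42 and 7.56 under HFD on the log2 scale. Arrays 1 and 2 of HFD-inulin were again the highest, and array 3 lay within the HFD range. The means were 8.07 ± 0.44 and 7.52 ± 0.09 (SD, n = 3). The log2 difference was 0.55 (SE 0.21, 95% interval 0.05 to 1.04), with an unadjusted p of 0.0358 and an adjusted p of 0.902 in limma. The RefSeq extents of Hspe1 and Hspd1 overlap at their ends, and whether any probe reads both was not tested.

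Hsp90aa1, the inducible cytosolic HSP90, had the largest difference of the 7. Its log2 signal was 7.82, 7.54 and 5.95 under HFD-inulin, against 6.17, 6.13 and 5.94 under HFD. HFD-inulin array 1 was 3.35-fold and array 2 2.76-fold above the HFD mean, while array 3 was at 0.915 of it. The means of 7.11 ± 1.01 and 6.08 ± 0.12 (SD, n = 3) differed by 1.03 on the log2 scale (SE 0.46, limma adjusted p = 0.902), and the 95% interval ran from -0.07 to 2.13. The SD within HFD-inulin was thus close to the difference itself. The other probe sets listed for Hsp90aa1 are shared by name with the pseudogene symbols Gm5844 and Gm12346. They gave log2 differences of 1.08 and 1.11, with HFD-inulin array 3 lowest of the 6 arrays in each.

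Hsph1 encodes HSP105, an exchange factor for HSP70. It measured 5.86, 6.10 and 4.64 under HFD-inulin and 4.93, 5.02 and 4.69 under HFD. Here array 2 of HFD-inulin was the highest and array 3 the lowest of all 6. The log2 difference was 0.66 (SE 0.36, 95% interval -0.21 to 1.53, limma adjusted p = 0.902). Chordc1 encodes a zinc-binding co-chaperone of HSP90 with CHORD domains. Its log2 signal was 6.07, 5.89 and 4.89 under HFD-inulin and 5.06, 5.10 and 4.98 under HFD. Array 1 of HFD-inulin was the highest here, followed by array 2, with array 3 below every HFD array, and the difference was 0.57 (SE 0.29, 95% interval -0.13 to 1.27, limma adjusted p = 0.902).

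Dnajb1 encodes an inducible J protein of the cytosol. It measured 5.08, 4.79 and 4.69 under HFD-inulin and 4.74, 4.68 and 4.58 under HFD. Only array 1 stood apart, and the difference was 0.19 (SE 0.11, 95% interval -0.08 to 0.46, limma adjusted p = 0.902). The probe set listed under both Dnaja1, another J protein gene, and the microRNA gene Mir207 measured 7.07, 7.03 and 6.64 under HFD-inulin. Under HFD it measured 6.74, 6.76 and 6.70. Arrays 1 and 2 of HFD-inulin were the highest there too, by a smaller step, and the log2 difference was 0.19 (SE 0.12, limma adjusted p = 0.905). It is not counted among the 7.

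Hspa8 encodes HSC70, the constitutive cytosolic HSP70. Its log2 signal was 10.73, 10.63 and 10.42 under HFD-inulin and 10.62, 10.64 and 10.55 under HFD, a range of 0.30 in all. HFD-inulin held the highest and the lowest array, and the difference was -0.01 (SE 0.09, limma adjusted p = 0.991). The 95% interval, -0.23 to 0.21, leaves out differences of the size measured for Hsp90aa1. The sign of this difference flipped to 0.02 after quantile normalization and after median centring. All 4 singly named Hspa8 probe sets are numbered on other chromosomes than the gene, and their differences ran from -0.0149 to -0.0029. The probe set numbered on chromosome 9, where the gene lies, is listed with the small nucleolar RNAs Snord14c, Snord14d and Snord14e and gave 0.05. Which copy of the gene these probe sets measured is uncertain.

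The mitochondrial members were set beside the cytosolic ones array by array. HFD-inulin arrays 1 and 2 were 0.90 and 0.90 above the HFD mean on the log2 scale for the mean of Hspe1 and Hspd1. They were 1.25 and 1.18 above it for the mean of Hsp90aa1, Hsph1 and Chordc1. HFD-inulin array 3 was 0.08 above the HFD mean for the mitochondrial mean and -0.17 from it for these 3 cytosolic genes. The difference between the compartments was not tested. The trio was put together after its values were seen, and over all 5 cytosolic members the values under HFD-inulin were 0.86, 0.74 and -0.14.

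**Figure D2:**
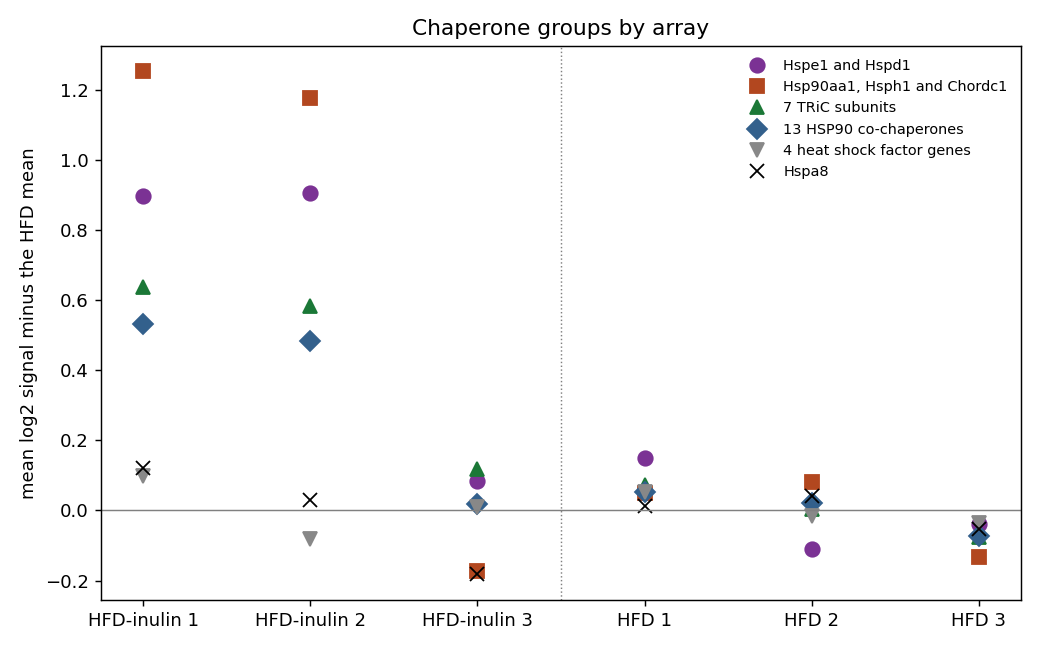
Mean log2 signal of chaperone groups minus their HFD mean, by array, with Hspa8 as a single gene. HFD-inulin arrays 1 and 2 are high for Hspe1 with Hspd1, for Hsp90aa1 with Hsph1 and Chordc1, for the HSP90 co-chaperones and for TRiC. HFD-inulin array 3 and the HFD arrays lie within about 0.2 of 0, and Hspa8 and the other heat shock factor genes (with Hsbp1) stay near 0 throughout.

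Leaving out HFD-inulin array 3 raised every difference. Without it the log2 differences were 1.61 for Hsp90aa1, 1.10 for Hsph1, 1.004 for Hspe1, 0.93 for Chordc1, 0.80 for Hspd1, 0.27 for Dnajb1 and 0.08 for Hspa8. The adjusted p of Hsp90aa1 in limma was then 0.0558, and 5 of 7 members had an unadjusted p under 0.05, against 9.89% of all probe sets. Still 0 members and 0 probe sets passed the adjusted threshold. Leaving out HFD-inulin array 1 lowered Hsp90aa1 to 0.67, Chordc1 to 0.34 and Dnajb1 to 0.07. Leaving out HFD-inulin array 2 lowered Hsph1 to 0.38. With HFD-inulin array 1 or array 2 left out, 0 of 7 members had an unadjusted p under 0.05, against 3.98% and 3.92% of all probe sets. With HFD arrays 1, 2 and 3 left out in turn, the members' counts were 1, 0 and 0, against 6.12%, 3.18% and 3.36%.

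**Figure D3:**
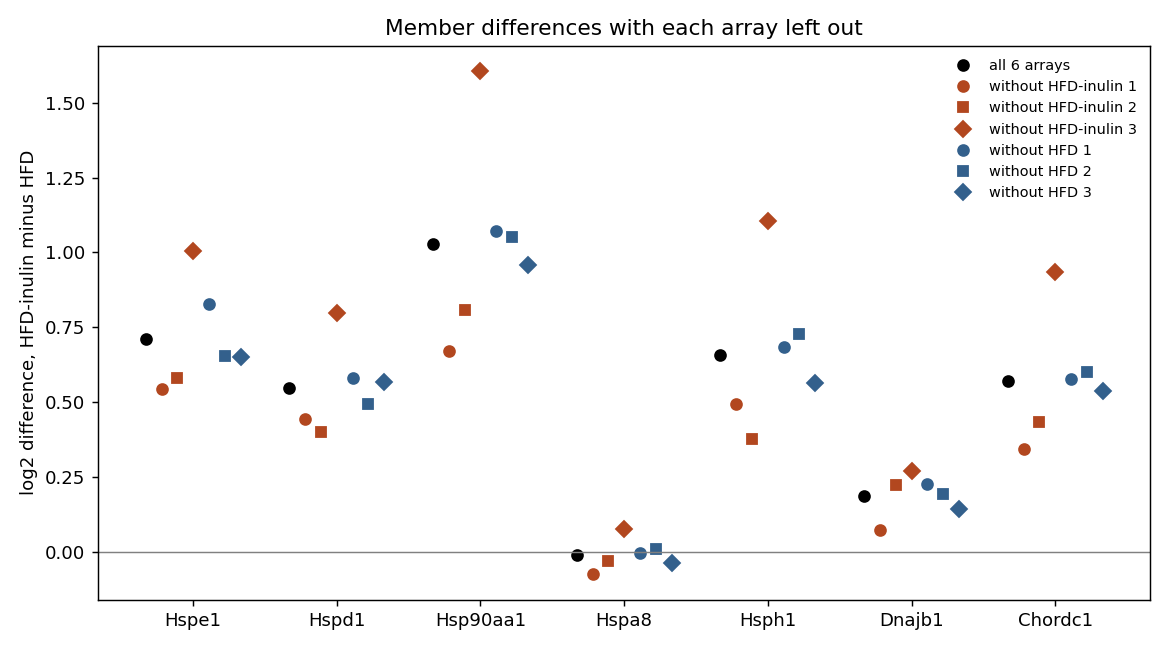
Log2 difference, HFD-inulin minus HFD, of each member with all 6 arrays and with each array left out in turn. The points without HFD-inulin array 3 are the highest for all 7 genes, reaching 1.61 for Hsp90aa1, and the lowest point of each gene is the one without HFD-inulin array 1 or the one without HFD-inulin array 2.

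The arrays also differ in ways that cross the groups. The mean of 245 many-copy probe sets numbered on chromosome Y was between 1.34 and 1.91 in HFD-inulin arrays 1 and 2 and HFD array 1, called low-signal arrays here, and between 2.99 and 3.24 in the other 3. Within HFD, array 1, the low-signal one, was at 5.62 for Hspe1 against 5.27 and 5.27. For Hsp90aa1 it was at 6.17 against 6.13 and 5.94. It was the highest HFD array for Hspd1 and Dnajb1 as well. For Hsph1, Chordc1 and Hspa8 the highest HFD array was instead array 2, which is not a low-signal one. They measured 5.02, 5.10 and 10.64 there, against 4.93, 5.06 and 10.62 in HFD array 1. The part of this division in the chaperone differences was not tested. Between the low-signal arrays of each group the differences were 1.52 for Hsp90aa1, 1.05 for Hsph1, 0.92 for Chordc1, 0.77 for Hspe1 and 0.73 for Hspd1. Between the high-signal arrays they were -0.08, -0.21, -0.15, 0.24 and 0.08 in the same order, so these 3 cytosolic genes changed sign. Each of these comparisons sets 1 array of a group against 2 of the other, and they are given as values. With the division as a block, the difference was 0.72 for Hsp90aa1 and 0.50 for Hspe1. The mean over 7 measured hepatocyte markers of 8 listed was between 9.997 and 10.09 in HFD-inulin and between 10.14 and 10.25 in HFD. Of these markers 2 were lower in HFD-inulin at an unadjusted p under 0.05 in limma, Hnf4a and Apob, named after their values were seen, against 2.64% of all probe sets. Hnf4a, a hepatocyte transcription factor gene, measured 6.86, 6.86 and 6.77 under HFD-inulin and 7.38, 7.46 and 7.44 under HFD, so its groups did not overlap. Its difference was -0.60 (SE 0.06, limma adjusted p = 0.390), and that of Apob was -0.17 (SE 0.06). Hnf4a thus had the largest part in the lower mean of the list. The other measured markers, Alb, Ttr, Tat, Cyp2e1 and Apoa1, differed by -0.10, -0.18, -0.17, -0.03 and 0.14. The groups overlapped in each of them. The mean of 7 neutrophil markers was 1.38, 1.87 and 1.41 under HFD-inulin and 1.34 to 1.47 in HFD, and the mean of 4 bile duct markers was 2.17, 2.62 and 2.14, against 2.08 to 2.25. Each mean was thus high in HFD-inulin array 2 and not in array 1, and 0 markers of either list passed an unadjusted p of 0.05 in limma. Part of each list carried its mean. In array 2 S100a8, S100a9 and Retnlg were 1.71, 1.05 and 0.50 above the HFD mean. Ly6g, Mpo, Elane and Camp were at 0.09, -0.03, -0.01 and -0.01 from it. Of the bile duct markers Krt19 was 1.16 above it, and Epcam, Krt7 and Sox9 were 0.30, 0.23 and 0.04 above it. Of the other lists, 2 of 6 Kupffer cell and 1 of 5 endothelial markers were lower at an unadjusted p under 0.05 in limma, against 2.64% of all probe sets. For the other lists, 0 of 5 lymphocyte, 5 stellate cell, 1 erythroid, 3 muscle, 2 fat and 2 pancreas markers measured passed it in either direction. Timd4 and Adgre1 differed by -0.32 and -0.32, Cd5l and Marco by -0.18 and -0.14, and Clec4f and Vsig4 by 0.03 and 0.02. Of the endothelial markers, Stab2 differed by -0.28, Kdr, Lyve1 and Pecam1 by -0.17, -0.11 and -0.11, and Clec4g by 0.23. The mean of the Kupffer cell markers was 4.78 to 4.95 in HFD-inulin and 4.88 to 5.11 in HFD. The part of other cell types in the chaperone signals was not tested. In whole liver, fewer cells of a type and less RNA per cell cannot be told apart.

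The wider chaperone network was described through 75 other genes listed by function, of which 72 were measured. Of these, 52 had a higher mean in HFD-inulin, against 46.9% of all genes, and their median log2 difference was 0.14. None passed the adjusted threshold in limma (0 of 72, smallest adjusted p = 0.902). Without adjustment 19 were past 0.05 with a higher mean and 0 with a lower one, against 3.42% of all genes for higher and 4.89% of genes at least as bright as the median probe set. Those 19 came mainly from TRiC and from the partners of HSP90. HFD-inulin arrays 1 and 2 were the 2 highest arrays in 39 of the 72, against 13.8% of all genes. The shares of 46.9% and 13.8% include dim genes and were not computed for bright genes alone. Leaving out arrays 1, 2 and 3 of HFD-inulin in turn gave 7, 6 and 32 in place of 19, against 2.60%, 2.08% and 8.67% of all genes. Leaving out arrays 1, 2 and 3 of HFD gave 12, 6 and 4, against 3.28%, 1.26% and 1.65%.

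TRiC is the ring-shaped chaperonin of the cytosol that folds actin and tubulin. All 7 measured subunits of 8 listed had higher means in HFD-inulin, by 0.27 to 0.69 on the log2 scale, against 46.9% of all genes. All 7 had an unadjusted p under 0.05 in limma (adjusted p = 0.902 at the smallest), against 3.42% of all genes for higher. Among genes at least as bright as the median probe set that share was 4.89%. In 6 of the 7 the groups did not overlap, which 4.32% of all probe sets did in this direction. TRiC was listed together with prefoldin and is set apart here. Of the 13 measured genes of that joint list, 8 were higher at an unadjusted p under 0.05 in limma, and in 7 the groups did not overlap. Cct2 measured 7.24, 7.24 and 6.84 under HFD-inulin and 6.76, 6.64 and 6.43 under HFD. Array 3 of HFD-inulin was lower than arrays 1 and 2 but above every HFD array, and the difference was 0.50 (SE 0.14). For Cct4 the difference was 0.27 (SE 0.08). Over the 7 subunits HFD-inulin array 3 was 0.07 to 0.24 above the HFD mean, and in Cct8 it lay below HFD array 1. The count of 7 at an unadjusted p under 0.05 was 2 with ordinary least squares, against 2.22% of all genes for higher. Within the high-signal arrays, where HFD-inulin has a single array, the median difference of the subunits was 0.14. In limma the count fell to 2 without array 1 or 2 of HFD-inulin, against 2.60% and 2.08% of all genes. It was also 2 without array 2 or 3 of HFD (1.26% and 1.65%), and 5 without array 1 of HFD (3.28%). Prefoldin hands nascent chains to TRiC, and its 6 measured subunits had a median difference of 0.06. The largest of these differences were those of Pfdn5 and Pfdn6. Pfdn5 measured 7.10, 7.09 and 7.04 under HFD-inulin and 6.90, 6.66 and 6.73 under HFD. Its difference was 0.31 (SE 0.08), and its groups did not overlap. Pfdn6, named after its values were seen, measured 5.76, 5.68 and 5.29 under HFD-inulin and 5.32, 5.32 and 5.30 under HFD. Only its arrays 1 and 2 of HFD-inulin were high, and the difference was 0.26.

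Co-chaperones of HSP90 had higher means in 12 of 13 measured genes, against 46.9% of all genes, with a median log2 difference of 0.30. Of the 13, 5 were higher at an unadjusted p under 0.05 in limma, against 3.42% of all genes and 4.89% of genes at least as bright as the median probe set. Ahsa1, which activates the HSP90 ATPase, measured 5.998, 6.04 and 5.10 under HFD-inulin and 4.996, 4.998 and 4.87 under HFD. Stip1, the HOP adaptor that joins HSP70 to HSP90, measured 7.04, 6.84 and 5.94 under HFD-inulin. Under HFD it measured 5.91, 5.89 and 5.77. In both genes HFD-inulin array 3 lay just above the HFD arrays, so the groups did not overlap, with differences of 0.76 (SE 0.25) and 0.75 (SE 0.27). Cdc37, which brings kinases to HSP90, differed by 0.22 (SE 0.08).

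**Figure D4:**
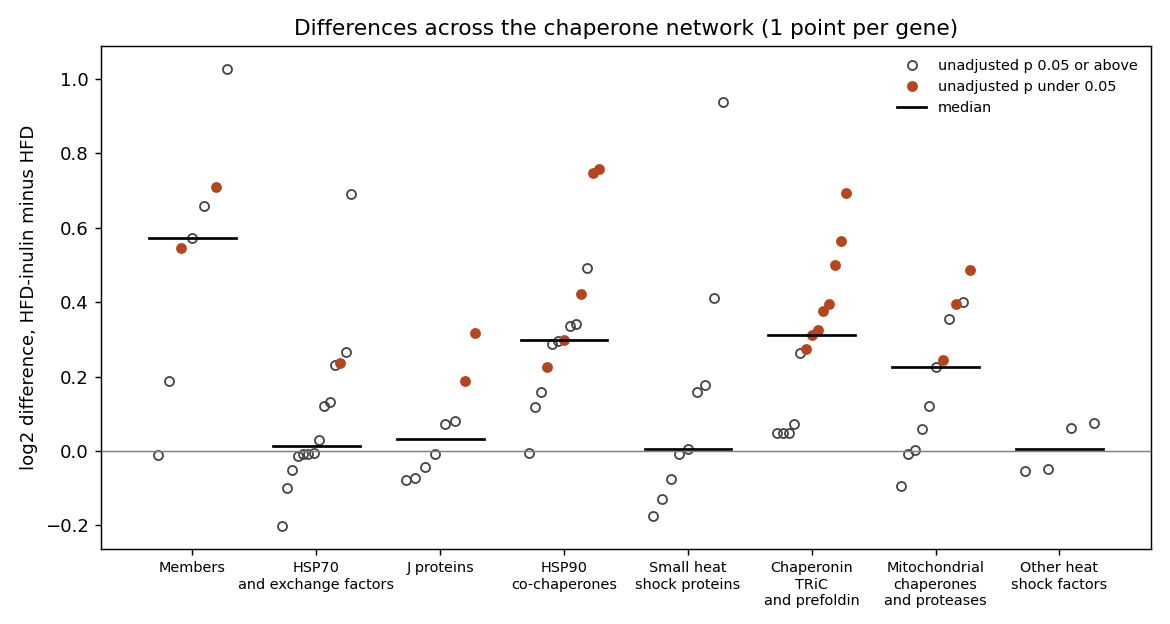
Log2 difference, HFD-inulin minus HFD, of each measured gene of the members and of 7 functional groups, with the group median as a line and filled points at an unadjusted p under 0.05. Medians were 0.57 for the members, 0.31 for TRiC with prefoldin and 0.30 for HSP90 co-chaperones, and 0.03 or less for the HSP70 group, J proteins, small heat shock proteins (with Serpinh1) and other heat shock factors (with Hsbp1).

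HSP70 and its exchange factors showed no such shift as a list. Among 14 measured genes 7 had higher and 7 lower means, against 46.9% of all genes with a higher mean, and the median difference was 0.01. Only 1 had an unadjusted p under 0.05 in limma, against 3.42% of all genes for higher. It was Hspbp1, an exchange factor (0.24, SE 0.10). Hspa1a, a stress-inducible HSP70, measured 3.17, 3.21 and 3.54 under HFD-inulin and 3.49, 3.25 and 3.33 under HFD. HFD-inulin arrays 1 and 2 were its lowest, which is the opposite order to Hsp90aa1, and the difference was -0.05 (SE 0.12, limma adjusted p = 0.964). Hspa1a and Hspa1b are near-identical genes, so its signal is uncertain between them. Hspa4l, a relative of Hsph1, followed Hsph1 more closely, at 4.40, 3.77 and 2.91 under HFD-inulin and 3.11, 2.99 and 2.91 under HFD. Its difference was 0.69 (SE 0.34). Hspa12a differed by -0.10 (SE 0.06).

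J proteins were divided in direction too, with 4 of 8 higher, against 46.9% of all genes, and a median difference of 0.03. Of the 8, 2 were higher at an unadjusted p under 0.05 in limma and 0 lower, against 3.42% of all genes for higher. Dnaja2, a cytosolic relative of Dnaja1, had a difference of 0.32 (SE 0.10), Dnajb6, an anti-aggregation J protein, 0.19 (SE 0.07), and Dnajb5 -0.07 (SE 0.06). The promoter of Dnajb6 was the only one among the 61 wider-list genes with an entry to hold a motif of 3 units. Small heat shock proteins hold unfolded chains without ATP. To their list the collagen chaperone gene Serpinh1 of the serpin family was added. It had 5 of 9 higher, against 46.9% of all genes, and a median of 0.01. Hspb1, the most stress-responsive of them in many tissues, measured 6.17, 4.83 and 4.07 under HFD-inulin and 4.17, 3.98 and 4.11 under HFD. Array 1 of HFD-inulin was far above the rest and array 2 came next, with a difference of 0.94 (SE 0.48, limma adjusted p = 0.902). Serpinh1 differed by 0.18 (SE 0.09) and Hspb3 by 0.16 (SE 0.09). Hspb3 was dim, with group means of 1.41 and 1.25 against a median probe set of 1.22.

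Other mitochondrial chaperones and proteases had higher means in 9 of 11 genes, against 46.9% of all genes, with a median difference of 0.22. Of the 11, 3 were higher at an unadjusted p under 0.05 in limma and 0 lower, against 3.42% of all genes for higher. Hspa9, the mitochondrial HSP70, measured 7.75, 7.77 and 7.48 under HFD-inulin and 7.48, 7.33 and 7.46 under HFD. Its difference was 0.24 (SE 0.10), less than that of Hspe1 or Hspd1, and the groups did not overlap, though HFD-inulin array 3 and HFD array 1 both rounded to 7.48. Grpel1, the exchange factor of HSPA9, measured 5.57, 5.56 and 5.17 under HFD-inulin and 5.04, 4.89 and 4.91 under HFD. All HFD-inulin arrays were above all HFD arrays, with a difference of 0.49 (SE 0.12) and an unadjusted p of 0.00649 in limma. The protease subunit gene Clpp differed by 0.39 (SE 0.14). The list of other heat shock factor genes also held Hsbp1, which encodes an HSF1-binding protein. In this list, Hsf2 measured 4.19, 4.12 and 3.97 under HFD-inulin and 4.17, 4.21 and 4.05 under HFD. Its difference was -0.05 (SE 0.08), that of Hsf5 0.06 (SE 0.09), and that of Hsbp1 0.08 (SE 0.09). Hsf5 was dim, with group means of 1.49 and 1.43 against a median probe set of 1.22.

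The genes whose profile over the 6 arrays lay closest to the chaperones were found by the root mean square distance between log2 deviations from each gene's mean, among 14040 other protein-coding genes. Closest to the mean of Hspe1 and Hspd1 were Rps26, a ribosomal protein gene (distance 0.05), Lsr, a lipoprotein receptor gene (0.05), Hprt, of purine salvage (0.08), the TRiC subunit gene Cct7 (0.09) and Acsl4, which activates arachidonic acid (0.09). The profile itself had a root mean square size of 0.42. Closest to the mean of the 5 cytosolic members were Rbpms, an RNA-binding protein gene (0.06), the desmosomal gene Pkp2 (0.07), Cpt2, a mitochondrial carnitine palmitoyltransferase gene (0.07), the proteasome subunit gene Psmb6 (0.07) and Cacybp, which is in the HSP90 co-chaperone list (0.08). That profile had a size of 0.40. In all 10 genes HFD-inulin arrays 1 and 2 were the highest, by 0.52 to 0.79 over the next array. That order follows from the choice of genes close to profiles that are highest in those arrays, and is no separate result.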

How the data were processed

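Total RNA of 6 liver samples, extracted with TRIzol and labelled with biotin per the labels' protocols, was hybridised to 1 Affymetrix array each. The values are the authors' deposited log2 signals of 65956 probe sets, for which the submitters' processing notes name Affymetrix Expression Console 1.0. The base of the logarithm was taken from the range of values, and the summarization, background correction and build are not stated in the sources used here. Arrays have no read depth, and 3 per group limit the precision. GEO's platform table, updated through RefSeq symbols (GRCm38.p6), named 31258 probe sets with 1 gene and 1492 with several, which were left unnamed, and 33206 were not listed.

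Differences, HFD-inulin minus HFD, were fitted with limma 3.58.1 in R 4.3.3 (lmFit and eBayes, two-sided, no filter), adjusted by Benjamini-Hochberg over all probe sets, with a threshold of 0.05. The scripts were tested on simulated data. Members, gene lists and tests were chosen with earlier results of these data known. In the wider list, up to 3 genes per functional group with the smallest unadjusted p, and Hspa1a, Hspa1b, Hspa9, Hspb1 and Hsf2 whatever their values, were named, and 5 genes per profile by likeness. Hspa1b was not analysed here. Other cell types were checked with marker lists for hepatocytes, Kupffer cells, neutrophils, lymphocytes, endothelium, stellate cells, bile ducts, erythroid cells, muscle, fat and pancreas. Alternatives were another prior, ordinary least squares, a filter on dim probe sets, 2 normalizations, array weights, blocks, each array left out, and other probe sets.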

Additional observations from a re-analysis of the deposited data

How the results depend on the processing

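Over 11 settings that kept or divided the arrays, and each array left out in turn, 0 members and 0 of the wider list passed the adjusted threshold. The test was that of limma with eBayes, except with ordinary least squares, where plain t-tests were used. Over all probe sets 4 passed with a trended and robust prior and 0 in the other settings, with 0 to 0 over arrays left out. The count of 2 members at an unadjusted p under 0.05, against 5.15% of all probe sets, was 4 with array weights (7.46% of all probe sets), 4 with the replicate block (5.08%), 0 with ordinary least squares (4.60%), 1 after quantile normalization (4.67%), 0 within the high-signal (6.58%) and 5 within the low-signal arrays (5.64%), and 0 to 5 with an array left out (3.18% to 9.89%). The 19 higher genes of the wider list, against 3.42% of all genes, became 27 with array weights (5.69% of all genes), 7 with ordinary least squares (2.22%), 12 after quantile normalization (2.72%), 3 within the high-signal arrays (3.66%) and 4 to 32 with an array left out (1.26% to 8.67%). The 7 TRiC subunits became 2 with ordinary least squares, 0 within the high-signal arrays and 2 to 7 with an array left out. Direction turned within the high-signal arrays for Hsp90aa1 (-0.0828), Hsph1 (-0.21) and Chordc1 (-0.15). For Hspa8 it turned to 0.02 with quantile normalization, with median centring and with array weights (0.0167, 0.0220 and 0.0175), to 0.0645 within the low-signal arrays, to 0.0761 without HFD-inulin array 3 and to 0.01 without HFD array 2, with a range of -0.0762 to 0.0761 over arrays left out. The cause of these turns was not tested. Within these divisions 1 group has a single array, assumed to vary like the others, and the low-signal part holds HFD-inulin arrays 1 and 2, so its count is no independent support. Same-numbered arrays deviated from their group means with r = 0.26, -0.28 and 0.40 over probe sets, and the labels pair no animals, so the numbers were not read as pairs; with the replicate block the wider list had 22 higher genes in place of 19. The sources used here state no detection limit for the probe sets.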

Other observations

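The following genes of the wider list are named after their values were seen. Bag3, a co-chaperone of HSP70 in autophagy, measured 4.60, 4.40 and 4.30 under HFD-inulin and 4.63, 4.83 and 4.44 under HFD, so its mean was lower in HFD-inulin by a log2 difference of -0.20 (SE 0.12). Its partner Hspb8 measured 7.09, 7.38 and 6.45 under HFD-inulin and 6.47, 6.86 and 6.36 under HFD, with arrays 1 and 2 of HFD-inulin the highest. Clpx, the unfoldase that feeds CLPP, measured 6.50, 6.99 and 5.67 under HFD-inulin and 5.89, 6.06 and 6.01 under HFD. It was thus highest in array 2 and lowest in array 3 of HFD-inulin. Hspa13, a microsomal HSP70 relative, was at 4.83 in HFD-inulin array 2 and between 3.88 and 4.06 in the other 5 arrays. None of these 4 genes had an adjusted p under 0.05 in limma.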
